A study of Mus musculus with 6 samples.

Results

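Binding of p65, a DNA-binding subunit of the transcription factor NF-κB, was examined at 9 genes of the Hedgehog pathway and of hair follicle stem cells: Ptch1, Gli2, Gli3, Sox9, Lhx2, Lgr5, Lrig1, Nfatc1 and Cd34. The rule names the genes and uses no measured value, but the set was chosen with earlier results of these data known. They are 9 of 20923 protein-coding genes with a curated transcript on the chromosomes that held peaks. A ChIP–seq peak, a stretch where fragments pulled down with p65 pile up above the local background, was counted for a gene when the nearest RefSeq transcription start site to its midpoint (mm10) belonged to that gene, and any peak within 50 kb of a start site was also sought. By this rule the 9 genes took 8 of 8525 peaks in adult, 5 of 4169 for aged/IgG control, and 5 of 6014 for aged/anti-IL-17A/F.

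Hedgehog ligands bind the receptor PTCH1, which otherwise restrains Smoothened, and the released signal acts on genes through the GLI factors. GLI2 acts mostly as an activator and GLI3 mostly as a repressor, and Ptch1 is itself a target of the pathway. In the hair follicle, Hedgehog signaling drives growth of the new follicle, while SOX9, LHX2 and NFATC1 are transcription factors of its stem cells, and LGR5, LRIG1 and CD34 are surface proteins by which those cells are recognized.

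All mice were C57BL/6J, and the chromatin came from epidermal cells released from skin with trypsin. Adult mice (17 to 25 weeks) were untreated. Aged mice (80 to 90 weeks) had received intraperitoneal control IgG or antibodies that block IL-17A and IL-17F, for 12 weeks, starting at 73 weeks. Reads of 4 mice were merged in each condition before peaks were called, so each condition is 1 list with no replicate, and conditions cannot be tested against each other. The 3 input libraries were not analysed here. The labels name no sort, so whole epidermal suspensions were measured, in which follicle stem cells are a fraction. Fewer cells of a type with p65 bound and less binding per cell cannot be told apart.

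The labels and the peak names disagreed for one list. Every peak name in the list labelled adult carried the prefix Treated_m, as did those of aged/anti-IL-17A/F, while those of aged/IgG control carried Control_m. The GEO labels were kept, adult below means the list labelled so, and the aged lists are also compared without it. Among fixed markers, 6 of 7 basal keratinocyte genes had a peak in adult, 2 had one for aged/IgG control, and 5 had one for aged/anti-IL-17A/F. The lists differ in length, and peaks were assigned to 23.1%, 12.9% and 17.4% of all protein-coding genes in the same order, so these counts say nothing on their own about basal cells. Of 4 annotated suprabasal genes, 3 had a peak in adult, 3 in aged/IgG control, and 2 did for aged/anti-IL-17A/F. Among markers of other cell types, each list had a peak at 1 of 3 endothelial genes (Pecam1), and adult and aged/anti-IL-17A/F, but not aged/IgG control, had one at 1 of 2 Langerhans cell genes (Cd74) and 1 of 4 fibroblast genes (Pdgfra). All lists had peaks at 0 of 4 melanocyte genes and 0 of 4 annotated T cell markers. A peak does not measure expression, and the part of other cell types in the results was not tested. The number of reads over each summit was solved from the deposited fold enrichment and −log10 p, and came out whole within 1% of a step for every peak. The expected background had a lowest value of 13.4 reads in adult, 13.1 for aged/IgG control and 13.6 for aged/anti-IL-17A/F, and the weakest called summits held 34, 34 and 35 reads. The methods do not name the control library behind this background, and its values point to one: above the lowest value, 100% were whole multiples, within 0.001 reads, of the steps that MACS2 gives for a separate control scaled by 0.976, 0.969 and 0.952. Without a control the step would be 0.03 reads, which 6.66%, 9.79% and 1.48% of the values met.

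The DNA under the peaks is shown for Ptch1, Sox9, Gli2 and Lrig1, because the letters there separate 2 peaks with a full NF-κB consensus match from others without one. All are mm10, plus strand, 5′ to 3′, and capitals mark the NF-κB match (and, in the first, a match to TGANTCA, the letters of the AP-1 factors, before it) or the window that misses the NF-κB consensus by 1 letter on either strand.
Ptch1, intron, chr13:63548582-63548662: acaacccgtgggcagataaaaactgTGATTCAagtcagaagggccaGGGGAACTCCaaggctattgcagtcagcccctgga
Sox9, downstream, chr11:112788432-112788491: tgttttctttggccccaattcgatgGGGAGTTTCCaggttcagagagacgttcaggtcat
Gli2, far upstream, 1 mismatch, chr1:119234333-119234392: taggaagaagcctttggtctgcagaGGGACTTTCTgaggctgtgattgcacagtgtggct
Ptch1, near the start site, 1 mismatch, chr13:63564875-63564934: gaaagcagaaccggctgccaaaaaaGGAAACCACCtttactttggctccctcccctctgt
Lrig1, strongest site, 1 mismatch, chr6:94779919-94779978: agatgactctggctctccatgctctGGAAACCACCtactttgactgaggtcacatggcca
Lrig1, nearer upstream site, 1 mismatch, chr6:94718777-94718836: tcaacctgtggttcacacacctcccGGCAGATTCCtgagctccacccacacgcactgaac

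Of the 9 genes, 5 had a peak in at least 1 list and 4 (Gli3, Lhx2, Lgr5 and Cd34) had none in any, whereas 74.8% of all protein-coding genes had none in any. In adult 5 of 9 genes were bound, against 23.1% of all protein-coding genes. Aged/IgG control had 3 of 9, against 12.9%, and aged/anti-IL-17A/F had 3 of 9, against 17.4%. A peak lay within 50 kb of a start site for 4 of 9 genes in adult (43.6% of all genes), 3 for aged/IgG control (27.6%) and 2 for aged/anti-IL-17A/F (35.1%), and each of those peaks was assigned to the member itself. Cut to the number of peaks in the shortest list, by −log10 q, adult kept 3 bound members (Lrig1, Nfatc1 and Ptch1), and by start sites of protein-coding genes alone the members took 14 peaks in adult, 8 for aged/IgG control and 11 for aged/anti-IL-17A/F. Most of the 9 genes own wide stretches of genome. The stretch nearest to a start site was 155 kb for Ptch1, 234 kb for Gli2, 169 kb for Lrig1 and 167 kb for Nfatc1, but 43.8 kb for Sox9, beside a median of 42.4 kb over all genes. The 4 genes with no peak also had stretches above the median, of 586 kb for Gli3, 124 kb for Lgr5, 118.2 kb for Lhx2 and 77.5 kb for Cd34. The part of this width in the counts was not tested.

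**Figure D1:**
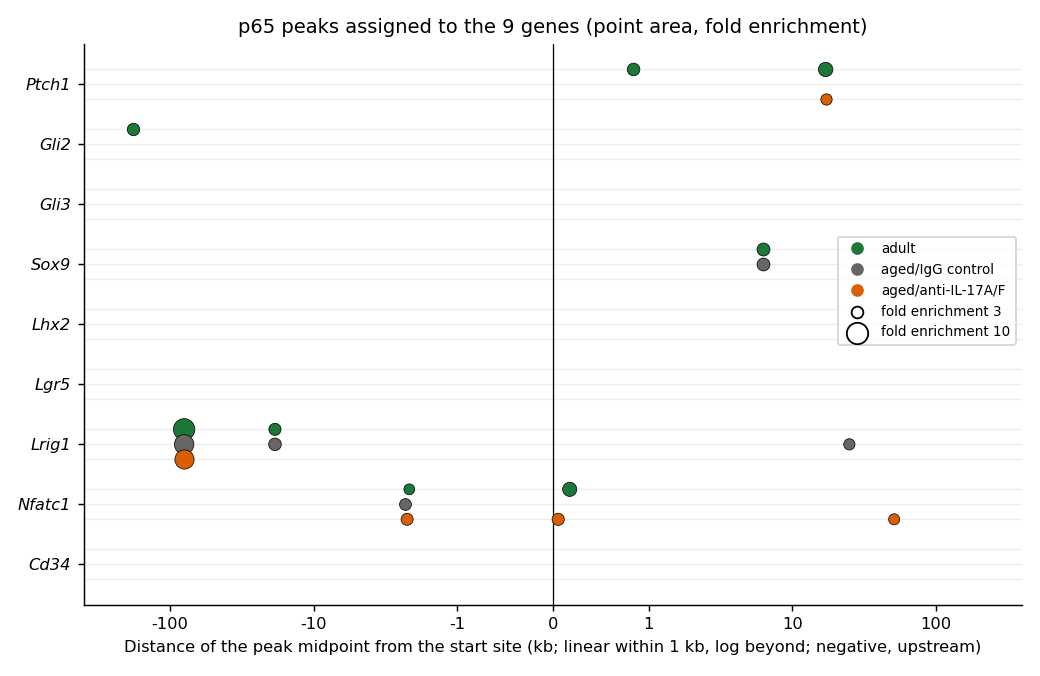
Distance of each assigned peak's midpoint from the gene's nearest start site (kb, linear within 1 kb and log beyond) for the 9 genes, with 1 line per condition (green, adult; grey, aged/IgG control; orange, aged/anti-IL-17A/F) and point area in proportion to fold enrichment. Peaks of Ptch1 and Sox9 lay downstream of the start site, the strongest site lay 79.85 kb upstream of Lrig1, and Gli3, Lhx2, Lgr5 and Cd34 have empty lines.

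Ptch1, the Hedgehog receptor (chr13:63508328-63573460, minus strand), had 2 peaks in adult, none for aged/IgG control and 1 for aged/anti-IL-17A/F. The site 17.08 kb past the nearer of 2 start sites, in an intron, was called in adult (chr13:63548487-63548883) with a fold enrichment of 4.54, rank 2487, and 66 reads over a background of 13.8. For aged/anti-IL-17A/F the same site (chr13:63548435-63548800) had a fold enrichment of 2.79, rank 5116, and 55 reads over a background of 19.0. The fold enrichments of this site stood 1.62-fold apart, whereas the reads stood 1.20-fold apart, with a 95% interval of 0.826 to 1.75 from counting error alone, and the rest of the gap in fold enrichment lay in the background term. The closest aged/IgG control peak to the site was 117 kb away. At a −log10 q of at least 10 and with equal numbers of peaks the aged/anti-IL-17A/F peak was lost (its −log10 q was 8.01), and Ptch1 was then bound in adult alone.

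The NF-κB match of this intron site lay 21 bp from the adult summit and 10 bp from the aged/anti-IL-17A/F summit. The AP-1 match printed above lay 14 bp before it, and the peak held a further AP-1 match, so that both factors' letters stood within a single peak. The other Ptch1 peak was called in adult only, 0.84 kb past the same start site (chr13:63564646-63565142, intron), with a fold enrichment of 3.48, rank 4617, and 50 reads. It had no full NF-κB match.

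Gli2, the main activator of the pathway (chr1:118834061-119054405, minus strand), had a single peak, in adult, 180.72 kb upstream of its start site (chr1:119234153-119234520, intergenic). Its fold enrichment was 3.39, rank 4968, and 48 reads lay over the summit. No aged peak came near it, since the closest was 747 kb away for aged/IgG control and 414 kb away for aged/anti-IL-17A/F. The call rests on the annotation, the threshold and the length of the list: the peak was no longer assigned to Gli2 with predicted transcripts added, by gene body or with the 50 kb limit, and it was lost at a −log10 q of at least 10 (its own was 9.94) and with equal numbers of peaks. An AP-1 match lay 45 bp from the summit and the window of 1 mismatch to NF-κB lay 4 bp from it. Gli3, the repressor of the pair (chr13:15463723-15730026), had its closest peak 549 kb away in each list.

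Sox9, a transcription factor of follicle stem cells (chr11:112782210-112787757, plus strand), had 1 site, 6.26 kb past its start site and just beyond the gene's end. The adult peak (chr11:112788245-112788662) had a fold enrichment of 3.67 at rank 4014 and the aged/IgG control peak (chr11:112788305-112788652) had 3.64 at rank 2303. Both summits held 52 reads, a ratio of 1 (95% counting interval 0.668 to 1.5). The NF-κB match lay 34 bp from the adult summit and 8 bp from the aged/IgG control summit. In aged/anti-IL-17A/F no peak was called here, and the closest to the start site was 206 kb away. Sox9 was the only member bound in adult and aged/IgG control but not in aged/anti-IL-17A/F, a pattern that 0.918% of all protein-coding genes had. The pattern held under the stricter thresholds, distance from the summit, predicted transcripts and the 50 kb limit, but ended under 3 other alternatives for the labelled lists: with equal numbers of peaks Sox9 was bound for aged/IgG control alone, by gene body it was bound in no list, and with start sites of protein-coding genes alone it gained peaks in each list, from 206 to 641 kb away, while the site at 6.26 kb stayed as it was.

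Lrig1, a surface protein that restrains growth factor receptors in stem cells of the upper follicle (chr6:94604529-94700298, minus strand), carried the strongest member site in every list. It lay 79.85 kb upstream in intergenic DNA. The fold enrichment was 9.98 in adult (chr6:94779691-94780334, rank 319), 8.30 for aged/IgG control (chr6:94779719-94780298, rank 232) and 8.09 for aged/anti-IL-17A/F (chr6:94779633-94780290, rank 386). These ranks correspond to percentiles of 96.3, 94.4 and 93.6 within the lists, the top decile of each. The summits held 143 reads in adult (95% counting interval 121 to 168), 120 for aged/IgG control (99.5 to 143) and 138 for aged/anti-IL-17A/F (116 to 163), and the 3 intervals overlap.

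The strongest Lrig1 site had no full match to the NF-κB consensus anywhere in its peaks, whereas 68.7% of adult peaks in the top decile by fold enrichment, 70.0% for aged/IgG control and 69.7% for aged/anti-IL-17A/F had one. The window of 1 mismatch printed above lay 27 bp from the adult summit. Its 10 letters, GGAAACCACC, were also those of the window 7 bp from the adult summit near the Ptch1 start site. These letters, singled out after they were seen, stood within 100 bp of the summit on either strand in 51 of 8525 adult peaks (0.598%), and in 0.0528% of windows of equal length centred 2000 bp to either side. Both adult peaks that gave the letters are among the 51. Windows of 1 mismatch with any letters were also more frequent in adult peaks (69.4%) than 2000 bp away (24.8%). The contrast is thus no separate support for these letters.

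Weaker Lrig1 sites differed between the lists. The site 18.61 kb upstream was called in adult (chr6:94718574-94718956, fold enrichment 3.22, 62 reads over a background of 18.6) and in aged/IgG control (chr6:94718558-94718946, fold enrichment 3.48, 48 reads over 13.1). In aged/anti-IL-17A/F it was not called. A site 24.94 kb into the gene, in an intron, was called in aged/IgG control only (chr6:94675047-94675371), with a fold enrichment of 2.77, rank 3758 of 4169, and 38 reads. Lrig1 was thus bound in all 3 lists by the same upstream site and had 2 peaks in adult, 3 for aged/IgG control and 1 for aged/anti-IL-17A/F. That site's assignment rests on the annotation rule. With the 50 kb limit it was not counted, and Lrig1 then had no aged/anti-IL-17A/F peak. By gene body it was also not counted, and Lrig1 kept 1 other peak in each list. A further peak inside Lrig1, 53.6 kb past its start site, was given to the microRNA gene Mir7041, and is named here after its values were seen. It was called in adult (3.32, 64 reads) and aged/anti-IL-17A/F (2.79, 48 reads) but not for aged/IgG control, and with it, as under start sites of protein-coding genes alone, Lrig1 had 3, 3 and 2 peaks. The 3 genes whose strongest peaks had the most similar percentiles in the 3 lists, out of 2388 bound in all, were Dusp8, at a distance of 0.528 percentile points, Sbno2, at 0.762, and Tjap1, at 0.802.

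Nfatc1, a transcription factor that holds bulge stem cells quiescent (chr18:80606205-80713071, minus strand), was bound in all 3 lists, with 2 peaks in adult, 1 for aged/IgG control and 3 for aged/anti-IL-17A/F. The site common to the lists lay 2.24 kb upstream, with fold enrichments of 2.56 in adult, 3.06 for aged/IgG control and 3.16 for aged/anti-IL-17A/F and 44, 42 and 48 reads. Its −log10 q was 5.23, 6.92 and 8.74, so at a threshold of 10 this site was called in no list and Nfatc1 had no aged/IgG control peak. The aged/anti-IL-17A/F summit lay 3 bp from the adult one, while the aged/IgG control summit was 184 bp from the adult one. At the start site, in noncoding sequence of an exon, a peak was called in adult (chr18:80712400-80713394, 4.38, 74 reads) and in aged/anti-IL-17A/F (chr18:80712636-80713397, 3.25, 61 reads), with a ratio of 1.21 (95% counting interval 0.853 to 1.73). No aged/IgG control peak overlapped it, and the closest was the upstream peak, 1673 bp away.

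A weak intron peak 51.14 kb past the nearer of 2 start sites of Nfatc1 was called in aged/anti-IL-17A/F only (fold enrichment 2.68, rank 5389 of 6014, 38 reads). It stood beside a much stronger site in the same gene that the assignment rule gave to the noncoding gene Gm41790, because a start site of that gene lay 50.04 kb from the adult peak and the nearest of Nfatc1 52.3 kb. This neighbour, singled out after its values were seen, had a fold enrichment of 11.2 in adult (194 reads), 10.2 for aged/IgG control (148 reads) and 12.2 for aged/anti-IL-17A/F (176 reads), at percentiles of 97.5, 97.6 and 98.4, and held an NF-κB match and an AP-1 match in each list. By gene body it would be the strongest peak of any of the 9 genes.

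**Figure D2:**
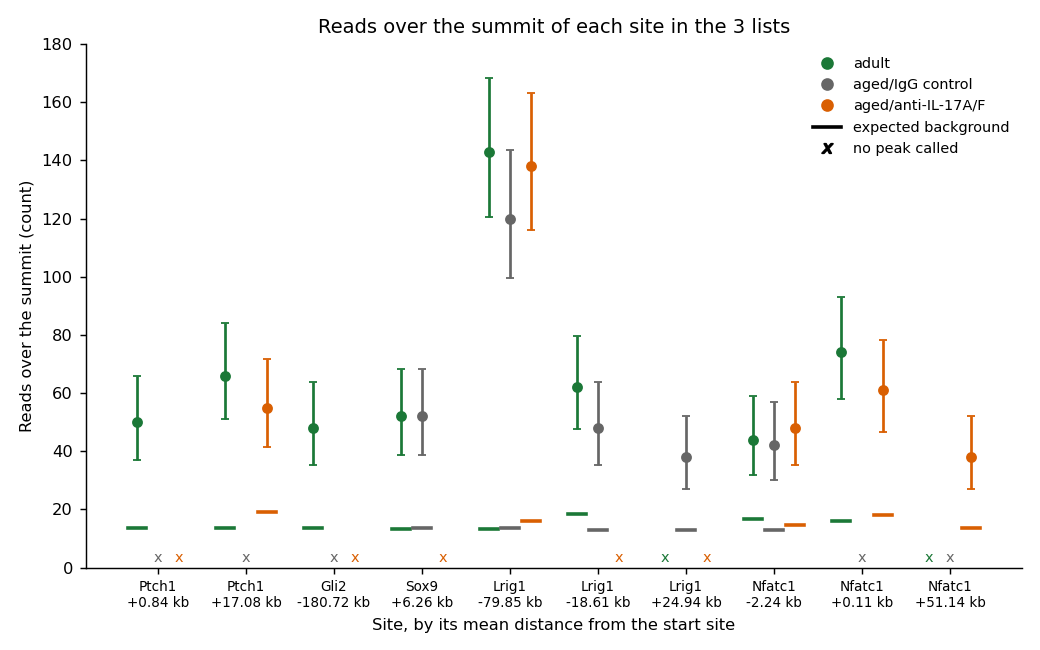
Reads over the summit (count) at the 10 sites of the 5 bound genes in the 3 conditions, with points for the count, bars for the exact 95% Poisson interval (counting error only), thick ticks for the expected background and a cross where no peak was called. Only the Lrig1 site 79.85 kb upstream rises above 100 reads, with 143, 120 and 138, while the other 9 sites held between 38 and 74.

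The surface markers Lgr5 and Cd34 and the transcription factor Lhx2 had no assigned peak. The peak closest to the start site of Lgr5 (chr10:115450314-115587780) was 227 kb away in adult, 203 kb for aged/IgG control and 227 kb for aged/anti-IL-17A/F. For Cd34 (chr1:194938821-194961292) it was 263 kb in adult, 1391 kb for aged/IgG control and 263 kb for aged/anti-IL-17A/F. Lhx2 (chr2:38339271-38369737) lay 575 kb from its closest peak in each list. Among all protein-coding genes the median distance was 68.3 kb in adult, 147 kb for aged/IgG control and 101 kb for aged/anti-IL-17A/F, so the 4 unbound genes stood at percentiles from 57.1 (Lgr5, aged/IgG control) to 90.9 (Cd34, aged/IgG control). A weak site below the calling threshold leaves no value in these lists.

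**Figure D3:**
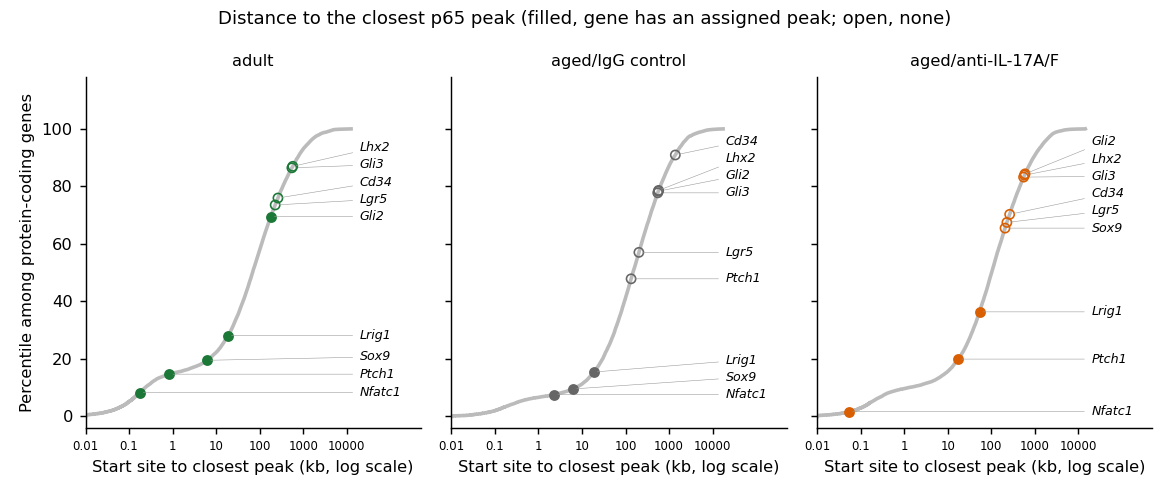
Distance from the start site to the closest p65 peak (kb, log scale) against its percentile among 20923 protein-coding genes (grey line) in each condition, with filled points for members that had an assigned peak and open points for those without. Gli3, Lhx2, Lgr5 and Cd34 are open in every panel, at 203 kb or more, while Nfatc1 lies at 0.174, 2.32 and 0.054 kb.

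The sites were then compared across the lists. Counted as sites, the 18 member peaks formed 10 places, of which 2 were called in all 3 lists (Lrig1 79.85 kb and Nfatc1 2.24 kb upstream), 4 in 2 lists and 4 in 1 list. For the 10 pairs of lists in which the same site was called, the ratio of summit reads lay between 0.870 and 1.29, and the 95% counting interval held 1 in 10 of 10. A site called in only 1 list of a pair gave no ratio, so the sites that could differ most are left out. The intervals also do not include the spread between mice, so they do not show that binding was alike.

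Of the 8 adult peaks, 4 had no overlapping aged/IgG control peak, against 54.5% of all adult peaks, and 4 had no overlapping aged/anti-IL-17A/F peak, against 39.6%. Shares of all peaks depend on strength, and the adult list is the longest. Adult peaks in the same decile by fold enrichment as the Ptch1 intron peak had no aged/IgG control partner in 25.8% of cases, whereas those in the decile of the Gli2 peak and the Ptch1 start site peak had none in 70.7% and those in the decile of the Nfatc1 start site peak in 45.1%. For the 4 adult peaks with no aged/anti-IL-17A/F partner, the shares in the same deciles were 50.1% for Gli2 and for the Ptch1 start site, 59.4% for Lrig1 at 18.61 kb and 41.8% for Sox9. By gene, 2 of the 5 genes bound in adult (Ptch1 and Gli2) were not bound in aged/IgG control, against 46.7% of all genes bound in adult. These shares are near the background of all peaks or genes.

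Without the list labelled adult, the comparison is between the aged lists, both with 5 peaks at 3 members. In aged/IgG control 3 of 5 peaks (Sox9 and the weaker Lrig1 pair) had no overlapping aged/anti-IL-17A/F peak, against 13.4% of all peaks in that list, and 34.8%, 19.2% and 14.6% in the deciles that hold the Lrig1 peak 24.94 kb into the gene, the one 18.61 kb upstream and the Sox9 peak. Likewise 3 of 5 peaks for aged/anti-IL-17A/F (Ptch1 and Nfatc1 at the start site and at 51.14 kb) had no overlapping aged/IgG control peak, against 40.1% of all and 69.6%, 63.6% and 69.6% in the deciles of the Ptch1 peak, the Nfatc1 start site peak and the Nfatc1 peak at 51.14 kb. With so few peaks this is a description of which sites were called. Set against the adult list, 1 of 5 aged/IgG control peaks (Lrig1, 24.94 kb into the gene) had no partner, against 6.69%, while among the 5 peaks of aged/anti-IL-17A/F 1 (Nfatc1, at 51.14 kb) had no partner, against 14.4%.

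**Figure D4:**
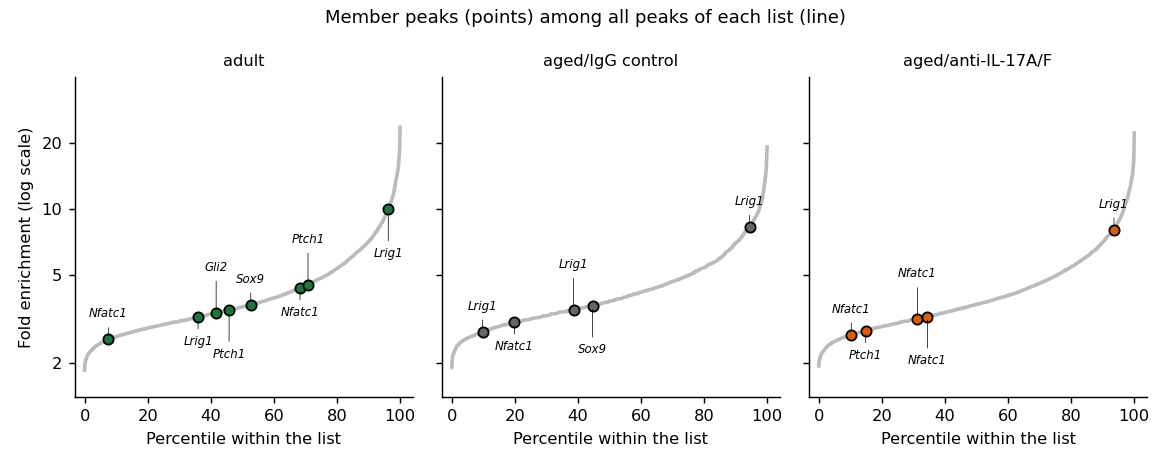
Fold enrichment (log scale) of the member peaks (points, named by gene) against percentile within each list, drawn on the curve of all peaks of that list (grey). The Lrig1 peak 79.85 kb upstream lies above the 90th percentile in each panel, and the other member peaks lie between the percentiles of 7.54 and 70.8.

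Letters of the NF-κB consensus were found in 2 of 8 member peaks in adult, 1 of 5 for aged/IgG control and 1 of 5 for aged/anti-IL-17A/F, all at the Ptch1 intron and Sox9 sites. Over all peaks, searched along their whole length (median 452, 431 and 444 bp), the shares were 34.9%, 44.7% and 41.9%. Windows 2000 bp away held the match in 2.18%, 1.95% and 2.26% of cases. Those windows reached only 100 bp to either side and so were shorter than most peaks, which widens the contrast. AP-1 matches (TGANTCA) stood in 2 of 8, 0 of 5 and 1 of 5 member peaks, against 22.9%, 23.8% and 24.8% of all peaks. The GLI letters GACCACCCA were in none of the 18 member peaks and in 0.246%, 0.240% and 0.299% of all peaks. With 1 mismatch allowed within 100 bp of the summit, 7 of 8, 4 of 5 and 4 of 5 member peaks held an NF-κB window, beside 69.4%, 76.1% and 74.4% of all peaks. Windows 2000 bp away held one in 24.8%, 24.7% and 25.1% of cases, so windows of 1 mismatch like those printed above are also common away from summits.

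The wider pathway was read from a list of 38 Hedgehog genes, of which 35 are not among the 9. Of these 35, 9 (25.7%) were bound in adult, 7 (20%) for aged/IgG control, with 8 (22.9%) for aged/anti-IL-17A/F, beside 23.1%, 12.9% and 17.4% of all protein-coding genes. The adult share is close to that of all genes. In all 3 lists 6 (17.1%) were bound, beside 11.4% of all protein-coding genes. This list too was chosen with earlier results of these data known, and the part of gene stretch width in its shares was not tested. The highest fold enrichments were at Disp1, which releases Hedgehog ligand from the cell, with 15.1 in adult, 10.6 for aged/IgG control and 16.0 for aged/anti-IL-17A/F. Ccnd2, a cyclin of the G1 phase, had 5.63, 4.57 and 5.63, and Gsk3b, a kinase that acts on GLI proteins, had 4.02, 3.65 and 4.89, in the same order. In adult these peaks lay at -29266 bp from the start site (negative, upstream) for Disp1, -56426 bp for Ccnd2 and -126 bp for Gsk3b. Cdon, a co-receptor for the ligand, had a weak peak of 2.74 in adult and none in either aged list. Evc2, singled out after its values were seen, was bound in both aged lists (4.47 in aged/IgG control, 4.54 in aged/anti-IL-17A/F), with no adult peak, a pattern of 0.215% of protein-coding genes.

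A second list of 38 genes holds regulators and markers of follicle stem cells, 32 of them not among the 9. It is not confined to those cells, since Krt15, Itga6 and Col17a1 were also among the fixed basal keratinocyte markers above. Of these 32, 15 (46.9%) were bound in adult, 9 (28.1%) for aged/IgG control, with 13 (40.6%) for aged/anti-IL-17A/F, again beside 23.1%, 12.9% and 17.4% of all protein-coding genes. In all 3 lists 8 (25%) were bound, again beside 11.4%. Like the 9 genes, this list was chosen with earlier results of these data known. The part that wide gene stretches have in these shares was not tested. Tcf7l2, a transcription factor at the end of the Wnt pathway, had 15.7 in adult, 12.7 for aged/IgG control and 15.3 for aged/anti-IL-17A/F. Runx1, a regulator of stem cell activation, had 12.1, 10.4 and 8.38, and Tcf7l1, a repressor relative of Tcf7l2, had 10.5, 10.4 and 11.2. In adult these peaks lay at -20228 bp from the start site for Tcf7l2, -214544 bp for Runx1 and -6174 bp for Tcf7l1. In adult only, peaks fell to Itga6, an integrin of the basal layer (3.69), Nfix, a nuclear factor I gene (3.34), and Cd200, a surface marker (2.64), a pattern of 6.47% of all protein-coding genes. Krt15, Foxp1, Foxc1 and Vdr, singled out after their values were seen, had peaks in adult and aged/anti-IL-17A/F but lacked one in aged/IgG control, the pattern shown by Ptch1 among the 9 and by Ccnd1 in the Hedgehog list, which 4.33% of all protein-coding genes had. Dkk3, singled out in the same way, had a peak in both aged lists (3.55 in aged/IgG control, 3.53 in aged/anti-IL-17A/F) and none in adult. The strongest adult peaks of Foxp1, Foxc1 and Cd200 lay at 60215, -55527 and 61971 bp from their start sites. Other assignment rules were not applied to the genes of these lists.

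**Figure D5:**
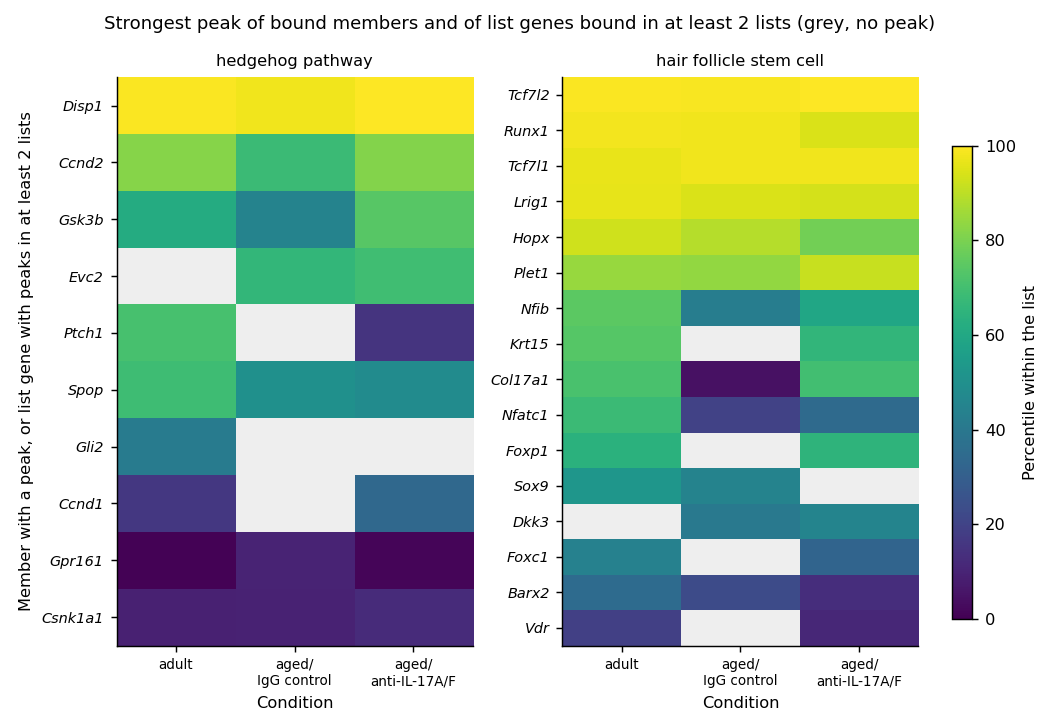
Percentile, within each list, of the strongest peak of each bound member and of every other list gene with peaks in at least 2 conditions, for the Hedgehog list (left) and the hair follicle stem cell list (right), with grey cells where no peak was called. Disp1, Tcf7l2, Runx1, Tcf7l1 and Lrig1 are above the 90th percentile in all 3 columns, and Ptch1, Ccnd1, Krt15, Foxp1, Foxc1 and Vdr are grey in the middle column only.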

How the data were processed

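The series holds p65 ChIP–seq of mouse epidermal cells in 3 conditions (4 mice pooled in each) and 3 inputs, which have no peak list used here. Per the methods, reads passed Trimmomatic 0.36, were aligned to mm10, pooled over 4 mice, deduplicated and downsampled to an equal number, and the authors ran MACS2 (q-value 0.01, fragment length 300 bp) on every pool. For each peak the deposited files give a position, a display score, a fold enrichment (a ratio to local background, with 1 added to both terms), the −log10 p-value, the −log10 q-value and the summit. The step of the background values is that of a scaled control library, which the methods do not name. Pooling hides the spread between mice, and MACS2 gives no value for an uncalled site.

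Peaks were assigned from the midpoint to the nearest curated RefSeq start site of GRCm38.p6, the assembly of mm10. Overlap meant at least 1 bp. Summit reads were solved from fold enrichment and −log10 p, with exact 95% Poisson intervals, and exact binomial intervals for ratios. The NF-κB consensus (10 letters), TGANTCA and GACCACCCA were sought on both strands. Shares of all peaks and genes describe the background. Sequences were read from RefSeq's GRCm38.p6 assembly. Steps were tested on simulated data. The tools were Python 3.11.15, scipy 1.17.1, pysam 0.24.0, pandas 2.3.3, numpy 2.4.6, bedtools 2.31.1 and matplotlib 3.10.9.

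The members and lists were chosen with earlier results of these data known. Named were all 9 members with each peak, the 3 list genes of highest fold enrichment, list genes bound in adult only (1 such result is not reported here), and the 3 genes nearest to Lrig1 in percentiles; others are marked as singled out after their values were seen. Alternatives were stricter thresholds, equal numbers of peaks, other annotation rules, other overlap and motif rules, and, added after seeing the data, treating the adult list as aged/anti-IL-17A/F and the reverse.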

Additional observations from a re-analysis of the deposited data

How the results depend on the processing

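Counts over the 9 genes were recomputed under the alternatives, and 65 of 96 recomputed counts stayed within 1.5 times the reported one. At a −log10 q of at least 5, no count moved beyond 1.5 times. At a −log10 q of at least 10, member peaks numbered 3 for aged/IgG control, with 2 for aged/anti-IL-17A/F, and 1 member of aged/anti-IL-17A/F had a peak within 50 kb. Gli2, the Nfatc1 call in aged/IgG control and the Ptch1 call in aged/anti-IL-17A/F were lost there. With as many of the strongest peaks in each list as the shortest holds, adult kept 3 members and 3 peaks (Lrig1, Nfatc1 and Ptch1), aged/anti-IL-17A/F 2 peaks, 1 member was bound in adult but missing from aged/IgG control, 2 adult peaks lacked an aged/IgG control partner and 1 lacked an aged/anti-IL-17A/F partner, and members with a peak within 50 kb numbered 2 in adult and 1 in aged/anti-IL-17A/F. Start sites of protein-coding genes alone gave 14 peaks in adult, 8 for aged/IgG control, and 11 for aged/anti-IL-17A/F, because peaks of noncoding neighbours then fell to Sox9, Nfatc1 and Lrig1. Members bound in adult but missing from aged/IgG control numbered 1 with predicted transcripts, 1 with start sites within 50 kb only (aged/anti-IL-17A/F then 3 peaks) and 1 by gene body, which gave 3 bound members in adult and 3 peaks in aged/IgG control. Allowing 1 mismatch raised member peaks with the NF-κB motif to 7, 4 and 4. Assignment from the summit, the other overlap rules, windows of 25 and 100 kb and a full match near the summit moved no count beyond 1.5 times.

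With the adult list exchanged for that of aged/anti-IL-17A/F, the list taken as adult had 3 members and 5 peaks, 2 members within 50 kb, 1 member not bound in aged/IgG control and 1 peak without a partner in the list taken as aged/anti-IL-17A/F, which had 5 members, 8 peaks and 4 members within 50 kb. No paired analysis was possible because each condition is 1 pooled list. For the same reason leaving out a library was not run. The number of reads limits weak sites: 38 reads carry a counting interval of 26.9 to 52.2.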
